A study of Zea mays with 50 samples.

Results

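Maize leaf protoplasts, plant cells freed of their wall, that expressed the transcription factor OCL4 were compared with protoplasts that expressed GFP alone. The comparison rested on 4 of the 50 libraries of the series: OCL4 in protoplast preps 1 and 3, and GFP in the same preps, each pair matched by prep. A second reference was the 20 libraries of the 10 other regulators expressed in preps 1 and 3, which were bHLH103, CSD4, DOF25, HSF2, NAC119, NAC29, TCP23, ZFL2, ZHD5 and ZIM13. All 30213 rows of the deposited table were read, and 28122 had at least 1 RPKM (reads normalised for the length of the row and the depth of the library) in at least 2 libraries and were tested.

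All the cells were of the inbred B73 and came from leaves of seedlings grown in the dark at 25 °C and taken at 10 to 12 days, with more than 10 seedlings pooled for each prep. OCL4 was driven by the 35S promoter with GFP at its N-terminus, and the control was GFP under the same promoter. The other regulators carried the same promoter and tag, except that ZFL2 had GFP at its C-terminus. The cells are therefore isolated leaf cells with an ectopic regulator, not the outer cell layer of an anther. The replicates of a group are 2 preps of 1 genotype. An SD below is the spread between these 2, and an SE comes from the residual spread of all 50 libraries in 25 groups after prep differences are removed.

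OCL4 belongs to the class IV homeodomain-leucine zipper (HD-ZIP IV) family of plant transcription factors, which carry a lipid-binding START domain and are best known from the epidermis. In maize, OCL4 is needed for normal anther wall development and male fertility, and it acts on hair formation on leaves. The series expressed putative regulators of reproductive phasiRNAs, small RNAs cut in phase from long transcripts of PHAS loci in anthers, and maize plants without OCL4 lack much of the shorter class of them. The question here is which transcripts, PHAS transcripts included, differ when OCL4 is made in leaf cells.

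Depth in the 24 libraries of preps 1 and 3 was 7603575 to 11875644 reads, recovered from the RPKM values. The OCL4 libraries held 10268158 and 8856603 reads in preps 1 and 3, and the GFP libraries 7603575 and 9675061. Of the leaf cell markers, C4ppdkZm1, which encodes the mesophyll enzyme pyruvate orthophosphate dikinase, stood at 102 and 151 RPKM in OCL4 cells and at 93.2 and 82.8 RPKM in GFP cells. The 7 mesophyll rows together summed to 135 and 194 RPKM in OCL4 cells and to 130 and 123 RPKM in GFP cells, with mdh6 at 16.9 and 23.96 RPKM and pep1 at 0.325 and 0.419 RPKM in OCL4 cells. The 4 bundle sheath rows summed to 23.3 and 26.2 RPKM in OCL4 cells and to 23.6 and 19.2 RPKM in GFP cells. The epidermal gene gl1 was at 0.221 and 0.229 RPKM in OCL4 cells and 0.222 and 0.174 RPKM in GFP cells. The 6 epidermal rows together, mostly an fdh row and ocl1, summed to 56.1 and 47.6 RPKM in OCL4 cells and to 58.6 and 47.8 RPKM in GFP cells. No marker of mesophyll, bundle sheath, epidermis, guard cell, xylem or anther passed the test against either reference. Of all rows tested, 0.0996% passed against GFP and 0.164% against the other regulators. In bulk RNA, fewer cells of a type and less RNA per cell cannot be told apart.

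The targeted gene was read first. Its row, ocl4 (GRMZM2G123140), held 98086 and 120276 reads in the OCL4 libraries of preps 1 and 3, which was 0.955% (95% Wilson interval 0.949 to 0.961) and 1.36% (1.35 to 1.37) of all reads. Neither GFP library held a read of it, which allows up to 3 reads, or 0.0942 RPKM in prep 1 and 0.0737 RPKM in prep 3. Intervals and floors cover counting error only, since PCR copies of a molecule were not marked. The mean level was 2816 ± 733 RPKM (SD, n = 2) in OCL4 cells, the 9th highest row of the table in prep 1 and the 7th in prep 3. Against the limit of 3 reads over both GFP libraries, the OCL4 libraries were at least 67049-fold higher. Of the other 20 libraries of preps 1 and 3, 8 held a read of ocl4, and the highest was bHLH103 in prep 1 with 88 reads or 2.34 RPKM. The label of both OCL4 libraries thus matched the RNA they held, and the transcripts counted here include those of the introduced construct as far as it overlaps the gene model.

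Apart from ocl4, 26 rows passed the test as higher and 1 as lower. A call required an adjusted p (limma, Benjamini-Hochberg) below 0.05 together with an absolute change of at least 1. Changes are on the log2(RPKM + 0.5) scale, which understates those of rows near 0. Against GFP, 27 rows were called higher, 0.096% of those tested, and 1 was called lower, 0.00356%. At an unadjusted p below 0.05 there were 1911 rows, or 6.8%. A row that reached 1 RPKM in the OCL4 libraries alone entered the test through them and could only be called higher. The counts of higher and lower calls are therefore not on an equal footing. With no filter on low values, 30 rows were called higher and 1 lower. The 26 higher rows other than ocl4 changed by 1.01 to 3.94, with a median of 1.65, beside a median of -0.01 over all rows tested. In all 26 rows both OCL4 libraries lay above both GFP libraries, an order that the call itself favours and that 15.1% of all rows tested showed, beside 15.8% with the opposite order. In 20 of the 26 both OCL4 libraries also lay above all 20 libraries of the other regulators, against 1.02% of all rows. The call rests on the same OCL4 libraries and favours this order too, so the 2 figures are not an independent check. Among those 20 libraries the highest was a NAC29 library in 11 of the 26 rows, beside 16.8% of all rows tested.

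In median level the 26 rows were close to the table as a whole. Their median was 4.65 RPKM in OCL4 cells, beside 5.87 RPKM for all rows tested, and 14 stood under 5 RPKM, as did 46.4% of all rows. A mean of 20 RPKM or more was reached by 2 of the 26. The share of all rows at that level was not counted. For scale, 27.5 RPKM, the level of GRMZM2G062807 in the OCL4 library of prep 1, ranked 4435th of the 30213 rows there. Their reads ran from 11 to 378 in an OCL4 library and reached at most 133 in a GFP library. Of the 26, 15 matched a RefSeq entry, as did 48.9% of all rows tested, and 2 had a gene name there, so most are given by the ID of their gene model. The OCL4 library of prep 3 was above that of prep 1 in 16 of the 26 and in 49.2% of all rows.

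**Figure D1:**
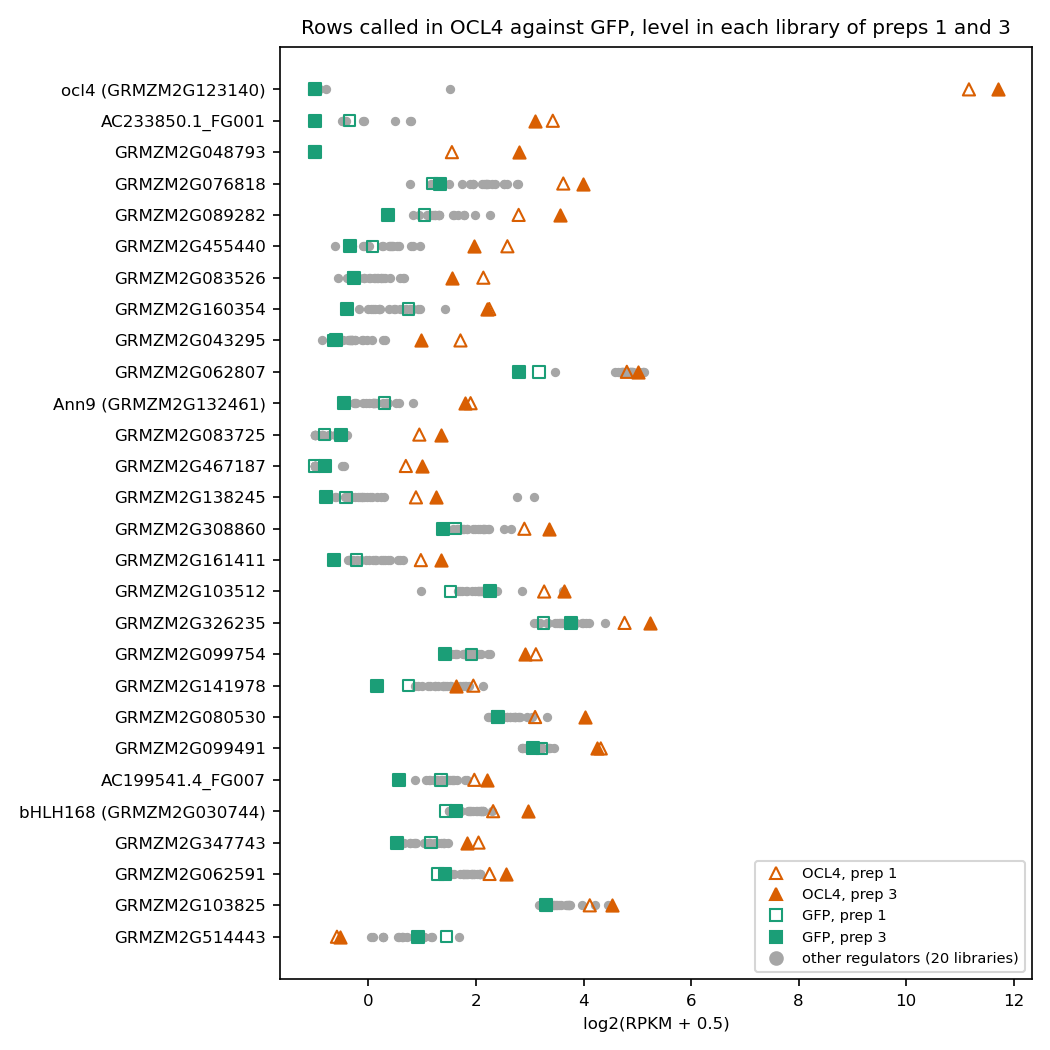
Level of each row called in OCL4 cells against GFP cells, on the log2(RPKM + 0.5) axis, with 1 point per library of preps 1 and 3 (triangles OCL4, squares GFP, grey dots the 20 libraries of the other regulators; open symbols prep 1, filled prep 3). The triangles stand right of both squares in 27 rows and left of them in GRMZM2G514443, and in GRMZM2G062807 the grey dots lie with the triangles.

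The largest rise was in AC233850.1_FG001. It stood at 10.3 and 8.10 RPKM in the OCL4 libraries of preps 1 and 3, at 0.287 RPKM and 0 in the GFP libraries, and at 0 to 1.23 RPKM in the other 20. The 80 reads in OCL4 cells against 1 read in GFP cells gave a ratio of 73.7 (95% counting interval 12.9 to 2947). The fitted change was 3.94 ± 0.50 (SE; limma adjusted p = 8.0e-05), and both OCL4 libraries lay far above every other library of their preps.

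GRMZM2G048793 was the single tested row with reads in both OCL4 libraries and none in the GFP libraries or the other 20 of preps 1 and 3. OCL4 cells held 28 and 63 reads, or 2.43 and 6.48 RPKM, and were at least 27.9-fold above the limit of 3 reads over both GFP libraries. Among the libraries of preps 2 and 4, 2 held a read of it, so it was not silent throughout the series. The highest of them stood at 0.0967 RPKM, so the row passed the filter on low values through the OCL4 libraries alone. It could be called higher but not lower. The level in prep 3 was above that in prep 1, and the groups did not overlap.

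Among the other large rises, GRMZM2G076818 stood at 11.8 and 15.4 RPKM in OCL4 cells, at 1.79 and 2.00 RPKM in GFP cells, and at 1.22 to 6.33 RPKM in the other 20 libraries, a change of 2.55 ± 0.38 against GFP (limma adjusted p = 0.0010). GRMZM2G089282 stood at 6.43 and 11.3 RPKM in OCL4 cells against 1.57 and 0.789 RPKM in GFP cells, a change of 2.47 ± 0.30. GRMZM2G083526 stood at 3.90 and 2.43 RPKM against 0.327 and 0.329 RPKM, a change of 2.12 ± 0.24. In these 3 rows no library of another regulator reached the lower of the OCL4 libraries. The first of them was lost when the OCL4 library of prep 3 was left out (2.29, limma adjusted p = 0.11).

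GRMZM2G455440 stood at 5.50 and 3.42 RPKM in OCL4 cells and at 0.553 and 0.288 RPKM in GFP cells. Libraries of preps 2 and 4 had a median of 1.35 RPKM and reached 12.3 RPKM, above both OCL4 libraries. The change against GFP was 2.41 ± 0.47 (limma adjusted p = 0.024). That call was lost without any 1 of the 4 libraries (2.20 to 2.62, adjusted p 0.13 to 0.31). GRMZM2G160354 stood at 4.25 and 4.14 RPKM against 1.17 and 0.262 RPKM, a change of 2.06 ± 0.41 that was lost without the GFP library of prep 3 (1.55, limma adjusted p = 0.54), without the OCL4 library of prep 3 (adjusted p = 0.59) or without that of prep 1 (0.087).

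Both rows with a name were of modest level. Ann9 (GRMZM2G132461) encodes an annexin, a protein that binds membrane lipids with calcium, and stood at 3.23 and 2.98 RPKM in OCL4 cells and at 0.734 and 0.230 RPKM in GFP cells. The other 20 libraries ran from 0.332 to 1.29 RPKM, below both OCL4 libraries. Libraries of preps 2 and 4 had a median of 1.07 RPKM and reached 7.59 RPKM, above both OCL4 libraries. The change against GFP was 1.93 ± 0.35 (limma adjusted p = 0.014). Without the GFP library of prep 3 the change was 1.59 (adjusted p = 0.38), and without the OCL4 library of prep 3 or of prep 1 the adjusted p was 0.24 or 0.069. The basic helix-loop-helix factor gene bHLH168 (GRMZM2G030744) stood at 4.49 and 7.28 RPKM in OCL4 cells, at 2.23 and 2.61 RPKM in GFP cells and at 2.32 to 4.42 RPKM in the other 20. Its change was 1.10 ± 0.20 (limma adjusted p = 0.016), and it was lost without the OCL4 library of prep 3 (0.85, adjusted p = 0.82), without the GFP library of prep 3 (1.10, 0.25) or without that of prep 1 (1.09, 0.13).

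The 2 rows with a mean of 20 RPKM or more in OCL4 cells differed in how the other regulators lay. GRMZM2G326235 stood at 26.6 and 37.2 RPKM in OCL4 cells, at 9.09 and 13.1 RPKM in GFP cells and at 7.97 to 20.5 RPKM in the other 20, so OCL4 stood apart from both references. Its change was 1.48 ± 0.28 (limma adjusted p = 0.018), lost without the OCL4 library of prep 3 (1.19, adjusted p = 0.82) or the GFP library of prep 1 (1.17, adjusted p = 0.35). GRMZM2G062807 stood at 27.5 and 32.0 RPKM in OCL4 cells and at 8.52 and 6.43 RPKM in GFP cells, a change of 1.93 ± 0.39 (limma adjusted p = 0.037). The other 20 libraries of GRMZM2G062807 had a median of 28.6 RPKM, 11 of them stood above the lower OCL4 library, and the change against them was 0.13 ± 0.29 (adjusted p = 0.89). Its call against GFP was lost without any 1 of the 4 libraries (1.63 to 2.23, adjusted p 0.082 to 0.59). In that row the GFP libraries were the low ones and OCL4 cells did not stand apart from the other regulators.

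Close to 20 RPKM, GRMZM2G099491 stood at 19.5 and 18.5 RPKM in OCL4 cells, 8.81 and 7.82 RPKM in GFP cells and 6.70 to 10.4 RPKM in the other 20, a change of 1.14 ± 0.18. It was lost without the OCL4 library of prep 3 (1.18, limma adjusted p = 0.069) or the GFP library of prep 3 (1.06, adjusted p = 0.13). GRMZM2G103825 stood at 16.8 and 22.5 RPKM against 9.41 and 9.39 RPKM. The NAC29 libraries of that row, at 18.1 and 21.3 RPKM, lay between the OCL4 libraries. GRMZM2G103825 changed by 1.01 ± 0.19 and lay just inside the size threshold. It was lost without the OCL4 library of prep 3 (0.83), the GFP library of prep 3 (0.97) or that of prep 1 (1.06, limma adjusted p = 0.12). Just outside it was GRMZM2G009719, at 35.04 and 31.5 RPKM in OCL4 cells and 17.4 and 15.8 RPKM in GFP cells, with a change of 0.98 ± 0.16. Just outside the threshold on p were GRMZM2G129083 (1.65 ± 0.35), GRMZM2G154007 (1.22 ± 0.26) and psiP (GRMZM2G060659, 1.20 ± 0.25), each with a limma adjusted p of 0.050.

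The remaining 9 higher rows had levels from 1.35 to 15.8 RPKM in the OCL4 libraries and changes from 1.05 to 1.68. GRMZM2G138245 stood at 1.35 and 1.90 RPKM in OCL4 cells and at 0.251 and 0.0784 RPKM in GFP cells, a change of 1.68 ± 0.25 (limma adjusted p = 0.0011). The NAC29 libraries of GRMZM2G138245, at 6.25 and 7.92 RPKM, lay above both OCL4 libraries. GRMZM2G308860 stood at 6.96 and 9.75 RPKM against 2.56 and 2.12 RPKM, a change of 1.63 ± 0.27, and no other library of its preps reached the OCL4 levels. GRMZM2G103512 stood at 9.13 and 12.0 RPKM against 2.38 and 4.32 RPKM, a change of 1.55 ± 0.24, and 1 other library, NAC29 in prep 3 at 11.8 RPKM, lay between the OCL4 libraries. Both GRMZM2G308860 and GRMZM2G103512 were called against the other regulators too.

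GRMZM2G161411 changed by 1.596 ± 0.313, on 24 reads in OCL4 cells against 3 in GFP cells, a ratio of 7.37 (95% counting interval 2.24 to 38.2). GRMZM2G141978 stood at 3.37 and 2.60 RPKM against 1.18 and 0.614 RPKM, a change of 1.34 ± 0.26, and 6 of the other 20 libraries lay above its lower OCL4 library. GRMZM2G080530 stood at 8.07 and 15.8 RPKM against 4.77 and 4.81 RPKM, a change of 1.16 ± 0.20. For that row NAC29 in prep 3, at 9.50 RPKM, lay above the lower OCL4 library. AC199541.4_FG007 changed by 1.12 ± 0.22, GRMZM2G347743 by 1.10 ± 0.22 and GRMZM2G062591 by 1.05 ± 0.17, with no library of another regulator above their OCL4 levels. All 9 calls were lost when 1 library was left out. For GRMZM2G103512 that was the GFP library of prep 1 (1.39, limma adjusted p = 0.061). For the other 8 the OCL4 library of prep 3 was among those that ended the call (0.80 to 1.48, limma adjusted p 0.15 to 0.82), and so was the GFP library of prep 3 (0.76 to 1.56, adjusted p 0.058 to 0.57). The OCL4 library of prep 1 ended those of GRMZM2G161411, GRMZM2G141978 and GRMZM2G347743 (1.14 to 1.71, adjusted p 0.071 to 0.15), and the GFP library of prep 1 those of GRMZM2G347743 and GRMZM2G062591 (1.02 to 1.28, adjusted p 0.059).

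The 1 row called lower was GRMZM2G514443. It held 1 read in each OCL4 library, or 0.167 and 0.197 RPKM, and 10 and 8 reads in the GFP libraries, or 2.24 and 1.40 RPKM. The other 20 libraries ran from 0.532 to 2.72 RPKM, all above both OCL4 libraries. The change of -1.74 ± 0.36 (limma adjusted p = 0.037) rested on few reads, and its call was lost without either OCL4 library or without the GFP library of prep 1 (adjusted p 0.085 to 0.80).

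Of the 28 calls against GFP, 9 held when each of the 4 libraries was left out in turn, and 8 held under every other processing setting that could test them, apart from a fit of the 4 libraries alone. Of those 8, 4 fell below the filter of 5 RPKM and were not tested under it: GRMZM2G048793, GRMZM2G083526, GRMZM2G043295 and GRMZM2G467187. Besides ocl4 those 8 were AC233850.1_FG001, GRMZM2G048793, GRMZM2G089282, GRMZM2G083526, GRMZM2G043295, GRMZM2G467187 and GRMZM2G099754. GRMZM2G043295 stood at 2.78 and 1.46 RPKM in OCL4 cells and 0.138 and 0.162 RPKM in GFP cells, a change of 1.96 ± 0.22. GRMZM2G467187 stood at 1.12 and 1.49 RPKM against 0 and 0.0734 RPKM, and its 34 reads against 1 gave a ratio of 31.3 (95% counting interval 5.25 to 1273). GRMZM2G099754 stood at 8.16 and 7.03 RPKM against 3.27 and 2.19 RPKM, a change of 1.34 ± 0.17. The ninth, GRMZM2G083725, at 1.43 and 2.04 RPKM against 0.0660 and 0.207 RPKM, was lost with a pseudocount of 0.1 (limma adjusted p = 0.052) and with limma-voom (0.097). It reached at most 0.262 RPKM with the other regulators and 0.718 RPKM in preps 2 and 4. Like GRMZM2G048793, it passed the filter on low values through the OCL4 libraries alone and could only be called higher.

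How many rows passed depended on which libraries were in the fit. Without the OCL4 library of prep 3, 10 rows were called higher, without the GFP library of prep 3, 12, without the GFP library of prep 1, 25, and without the OCL4 library of prep 1, 27. Without the OCL4 library of prep 1, 20 rows were called lower in place of 1, and all 20 had a negative change with both preps, with a median of -1.06.

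The preps share no library, so their changes could be set side by side. Over all rows tested without ocl4, 56.8% changed in the same direction in both preps, and the correlation across rows was 0.19. Over the 10666 rows with a mean of at least 10 RPKM it was 61.5% with a correlation of 0.49. Of those rows 72 rose by at least 1 in both preps, and 64 of the 72 had an SE of at least 1. The correlation without such rows was not computed, and rows within a library are not independent replicates. The rows called against GFP had the same direction in 28 of 28, which the call itself favours. Apart from ocl4, 180 rows rose by at least 1 in both preps and 55 fell by at least 1. With ocl4, 98 of the 181 rises had an SE of at least 1, and 21 of the 181 were called.

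**Figure D2:**
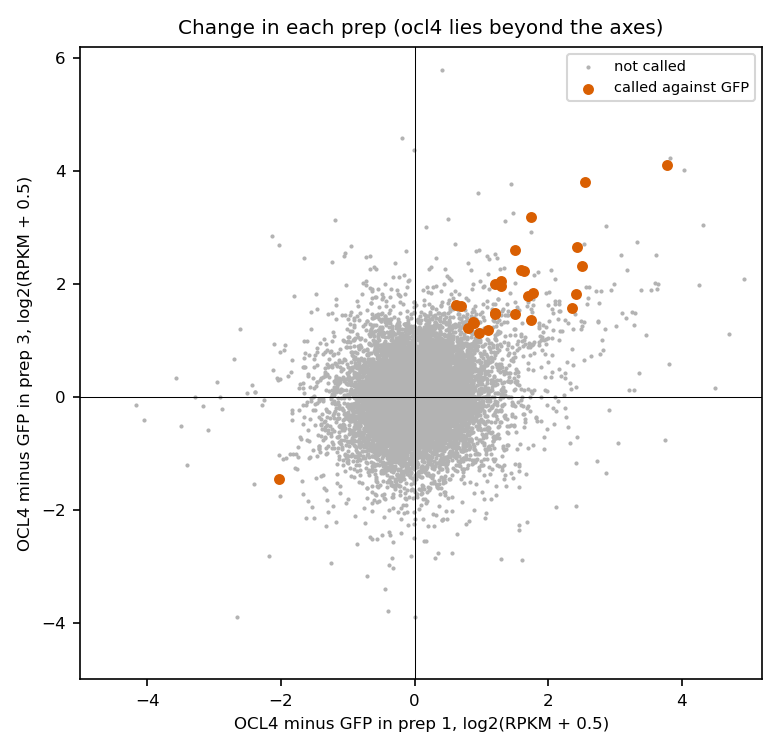
Change of each tested row in prep 1 (horizontal) and prep 3 (vertical), OCL4 minus GFP on log2(RPKM + 0.5), with grey dots for rows not called and orange dots for rows called against GFP. Orange dots lie at the upper right, apart from 1 at the lower left, and the row of ocl4, at 12.17 and 12.70, lies outside the axes.

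A set of 212 rows with an SE of at least 1, chosen after their SE was seen, differed widely in level between libraries. They summed to 10445 and 11808 RPKM in OCL4 cells and to 3070 and 5337 RPKM in GFP cells, and 166 of them had a positive change against GFP with a median of 1.40. Libraries of the other regulators ran from 1029 to 16429 RPKM for the same sum, so OCL4 cells were inside their range. None was called against either reference in limma, an outcome that choosing rows by a large SE favours. Of all rows tested, 0.0996% were called against GFP and 0.164% against the other regulators. A positive change against GFP was seen in 48.5% of all rows tested. Of the 212 rows 2 matched a RefSeq entry, beside 48.9% of all rows tested.

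The HD-ZIP IV family itself had 6 rows in the table, all tested. The gene of OCL4 was called, but it is the introduced gene, so its call says nothing about the family. Of the other members 1, HDZIV6_OCL6, was called against the other regulators and none against GFP. Of all rows tested, 0.164% were called against the other regulators and 0.0996% against GFP. HDZIV6_OCL6 (GRMZM2G001289) stood at 6.39 and 5.02 RPKM in OCL4 cells and at 3.43 and 1.74 RPKM in GFP cells. The other 20 libraries had a median of 2.49 RPKM and a highest value of 5.12 RPKM, in NAC29 of prep 1, above the OCL4 library of prep 3. In each prep the OCL4 library was the highest of the 12. The change was 1.07 ± 0.17 against the other regulators (limma adjusted p = 0.0011) and called, and 1.06 ± 0.23 against GFP (adjusted p = 0.057), just short of the call. Against GFP it passed with median-ratio rescaling (adjusted p = 0.0495) and with limma-voom on recovered reads (0.041). Against the other regulators it was lost without the OCL4 library of prep 3 (0.87, adjusted p = 0.28) and without the prep block (adjusted p = 0.20).

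The remaining 4 members were not called. The epidermal gene ocl1 (GRMZM2G026643) stood at 22.0 and 19.6 RPKM in OCL4 cells and 24.3 and 17.8 RPKM in GFP cells, groups that overlap, with a change of -0.00 ± 0.14. For ocl3 (GRMZM2G116658) the levels were 2.52 and 1.53 RPKM against 2.32 and 1.51 RPKM, a change of 0.05 ± 0.19. HDZIV8_OCL8 (GRMZM2G122897) changed by 0.54 ± 0.25 and ocl5 (GRMZM2G130442) by -0.43 ± 0.22, neither past the test (limma adjusted p = 0.72 and 0.78), and both stood under 1 RPKM in all 4 libraries. Where the counting shared reads, those of ocl4 and of close family members, HDZIV6_OCL6 included, cannot be told apart in either row. How shared reads were counted is not given in the sources used here.

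PHAS transcripts, the object of the series, did not pass the test in OCL4 cells. The table had 9 PHAS rows, of which 7 passed the filter on low values, and 0 of 7 were called against GFP or against the other regulators. Of all rows tested, 0.0996% were called against GFP and 0.164% against the other regulators. At those shares 7 rows would seldom hold a call, so the count says little about PHAS rows in particular. The most abundant, 24PHAS_NO166, stood at 258 and 359 RPKM in OCL4 cells and at 219 and 277 RPKM in GFP cells. Over both preps its groups overlap, but within each prep OCL4 lay above GFP and was the highest library of the prep. The share of all rows with that order was not counted. The change of 24PHAS_NO166 was 0.30 ± 0.14 (limma adjusted p = 0.72), and it was the 1 tested PHAS row with an unadjusted p below 0.05. The largest change was in 24PHAS_NO8, at 4.91 and 5.08 RPKM in OCL4 cells and 1.37 and 4.29 RPKM in GFP cells, or 0.88 ± 0.52 (adjusted p = 0.81). It was the 1 of 7 tested PHAS rows with both OCL4 libraries above both GFP libraries, an order that 15.1% of all rows tested showed. In that row GFP in prep 1 was the low library.

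The 3 rows of the shorter class, which the series names as the target of its regulators, overlapped between OCL4 and GFP. Overlap was common, since 15.1% of all rows tested had both OCL4 libraries above both GFP libraries and 15.8% had both below. The row 21PHAS_NO232 stood at 5.32 and 4.00 RPKM in OCL4 cells and 3.56 and 4.06 RPKM in GFP cells, a change of 0.25 ± 0.43. For 21PHAS_NO556 the levels were 0.753 and 1.98 RPKM against 0.785 and 1.67 RPKM, high in prep 3 in both groups. For 21PHAS_NO583 they were 0.656 and 1.36 RPKM against 1.32 and 0.344 RPKM, which is 2 to 7 reads, and the preps went opposite ways.

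All 7 tested PHAS rows had a positive change against GFP, from 0.08 to 0.88 with a median of 0.25, beside a median of -0.01 over all rows. That sign was weakly held: 2 of the 7 rose in both preps, and 5 of the 7 had a negative change when 1 of the 4 libraries was left out. The shares of all rows that did so were not counted. Against the other regulators 6 of 7 were positive, with a median of 0.21. The rows 24PHAS_NO35 and 24PHAS_NO44 were under the filter and stood lower in OCL4 than in GFP cells in both preps, at 4 to 10 reads. The SE of the 7 changes ran from 0.14 to 0.59, and all 7 lay below the size of 1 that a call required.

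**Figure D3:**
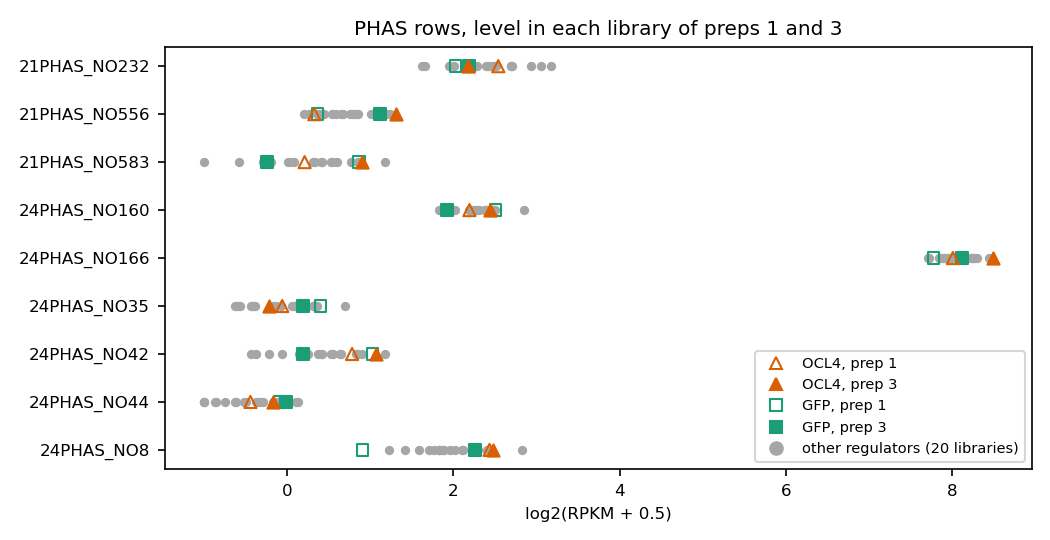
Level of the 9 PHAS rows in each library of preps 1 and 3 on the log2(RPKM + 0.5) axis (triangles OCL4, squares GFP, grey dots the other regulators; open symbols prep 1, filled prep 3). Triangles and squares are mixed in every row but 24PHAS_NO8, 24PHAS_NO35 and 24PHAS_NO44, and both OCL4 libraries stay within or near the grey dots.

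No row of the small RNA machinery passed the test. Of 16 rows, 14 were tested, 0 were called against either reference, and the changes against GFP ran from -0.28 to 0.43. With 0.0996% of all rows called against GFP and 0.164% against the other regulators, 14 rows would seldom hold a call. An unadjusted p below 0.05 against GFP was reached by 2 of the 14, and the median change was -0.00 against GFP and -0.02 against the other regulators. The Dicer gene dcl1 (GRMZM2G040762) stood at 22.9 and 25.2 RPKM in OCL4 cells and at 21.0 and 22.9 RPKM in GFP cells, a change of 0.13 ± 0.10. A row named dcl4 (GRMZM2G160473), for the Dicer of the shorter phasiRNAs, stood at 18.9 and 29.4 RPKM against 13.7 and 21.8 RPKM, a change of 0.43 ± 0.19 (limma adjusted p = 0.68). The 2 other rows named dcl4 changed by -0.11 ± 0.26 (GRMZM2G024466) and -0.28 ± 0.26 (GRMZM2G050882). The RNA polymerase gene rdr6 (GRMZM2G145201) changed by -0.28 ± 0.22.

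Epidermal and anther genes, from the tissues where OCL4 is known to act, did not pass the test either. Against GFP, 0.0996% of all rows tested were called, so 0 calls say little about lists this short. Of the cuticle, wax and epidermis list, 6 of 7 rows were tested, 0 were called and the median change was 0.01 against GFP. The fdh row GRMZM5G824600 stood at 30.1 and 25.4 RPKM in OCL4 cells and 30.05 and 26.3 RPKM in GFP cells, a change of -0.02 ± 0.10. Of the 3 anther and male fertility rows, ms32 (GRMZM2G163233), a basic helix-loop-helix gene needed for the tapetum, stood at 16.5 and 15.8 RPKM against 21.9 and 17.01 RPKM, a change of -0.25 ± 0.11 (limma adjusted p = 0.68).

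The second reference set OCL4 against the mean of the 10 other regulators in the same preps and the same fit. It shares the OCL4 libraries with the first comparison, so neither is a repeat of the other. Higher calls numbered 35, 0.124% of the rows tested, and lower calls 11, 0.0391%; 3490 rows, 12.4%, had an unadjusted p below 0.05. Of the 28 rows called against GFP, 19 were called here too, 67.9% of the GFP calls and 41.3% of the 46 calls against the other regulators. All 26 rows that rose against GFP had a positive change here, with a median of 1.26 and a lowest value of 0.13. The shared OCL4 libraries favour that sign, which 50.3% of all rows tested had.

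**Figure D4:**
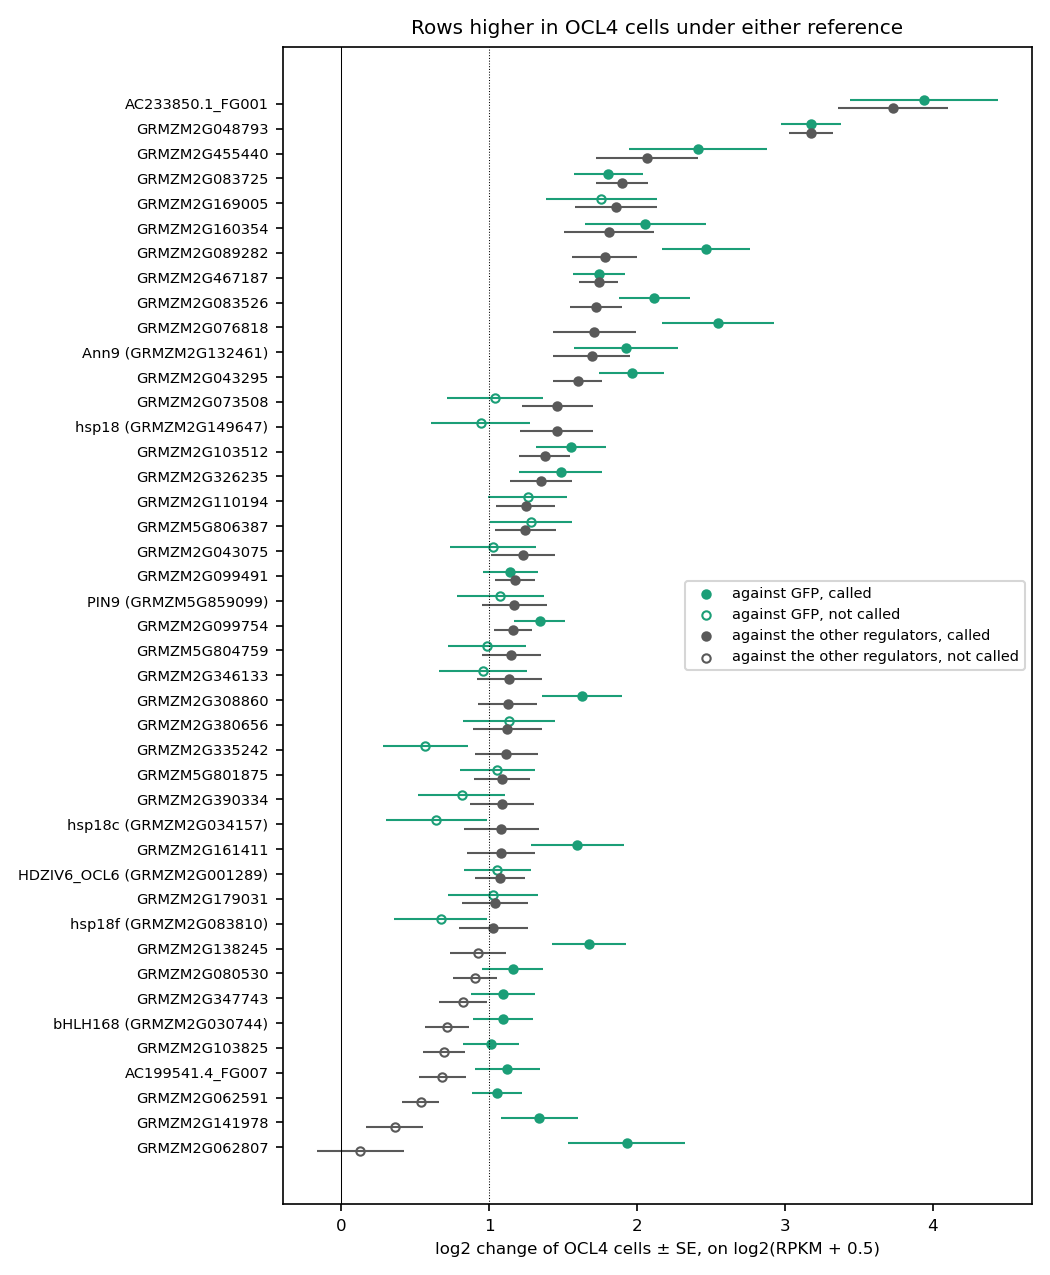
Fitted log2 change ± SE of OCL4 cells for each row called higher under either reference, without ocl4, against GFP (green) and against the other regulators (grey), with filled points for called changes. The dotted line marks the size threshold of 1, and GRMZM2G062807 at the bottom has 1.93 against GFP and 0.13 against the other regulators.

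A further 17 rows were higher against the other regulators alone. Their changes against GFP ran from 0.57 to 1.76, and in all 17 both OCL4 libraries lay above both GFP libraries. That order was seen in 15.1% of all rows tested, and a call resting on the same OCL4 libraries favours it. GRMZM2G169005 stood at 1.79 and 3.00 RPKM in OCL4 cells, 0.309 and 0.363 RPKM in GFP cells and 0.0526 to 0.675 RPKM in the other 20, a change of 1.86 ± 0.28 (limma adjusted p = 0.00052) that was lost without the OCL4 library of prep 3 (1.74, adjusted p = 0.13). PIN9 (GRMZM5G859099), of the PIN family of auxin efflux carriers, stood at 2.46 and 1.76 RPKM in OCL4 cells, 0.757 and 0.6998 RPKM in GFP cells and 0.229 to 1.23 RPKM in the other 20. Its change was 1.17 ± 0.22 against the other regulators (limma adjusted p = 0.0075), lost without the OCL4 library of prep 1 (0.97, adjusted p = 0.27) or of prep 3 (1.38, adjusted p = 0.13), and 1.08 ± 0.30 against GFP (adjusted p = 0.28).

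Of the 11 rows lower than in the other regulators, 5 had a library over 500 RPKM among those regulators. In those 5 the low level in OCL4 cells was set beside a strongly expressed row elsewhere. The share of all rows with such a library was not counted. A lower call here is against the mean of the other regulators and need not be a fall from GFP. HSF2 (GRMZM2G088242) was at 0 in both OCL4 and both GFP libraries and reached 2375 RPKM in the cells given HSF2. GRMZM2G514443 was the 1 row called lower under both references.

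Among heat shock genes, 3 rows for small heat shock proteins, chaperones that bind unfolded proteins, were called higher in OCL4 cells than with the other regulators. The row hsp18 (GRMZM2G149647) stood at 984 and 1015 RPKM in OCL4 cells, at 641 and 421 RPKM in GFP cells, and at 203 to 521 RPKM in the other 20 libraries, with a median of 388. OCL4 was above every other library, and the change was 1.46 ± 0.25 against the other regulators (limma adjusted p = 0.0030) but 0.94 ± 0.34 against GFP (adjusted p = 0.55). The row hsp18f (GRMZM2G083810) stood at 934 and 927 RPKM in OCL4 cells and 680 and 501 RPKM in GFP cells, a change of 1.03 ± 0.23 against the other regulators. The row hsp18c (GRMZM2G034157) stood at 108 and 130 RPKM against 81.9 and 69.8 RPKM in GFP cells, a change of 1.08 ± 0.25 against the other regulators. Of the other small heat shock rows, hsp22 (GRMZM2G007729) changed by 0.65 ± 0.24 and hsp 17.2 (GRMZM2G158232) by 0.56 ± 0.18 against the other regulators, neither called (limma adjusted p = 0.26 and 0.19). The calls of hsp18, hsp18f and hsp18c were lost without either OCL4 library (limma adjusted p 0.13 to 0.41) and without the prep block (0.12 to 0.43).

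Of 26 heat shock rows tested, 0 were called against GFP, and 3 were higher and 1, HSF2 itself, lower against the other regulators. Of all rows tested, 0.0996% were called against GFP, and 0.124% were higher and 0.0391% lower against the other regulators. Over the 25 rows without HSF2, the median change was 0.27 against GFP with 22 positive, and 0.56 against the other regulators with 24 positive. Their summed level was 9450 and 8634 RPKM in OCL4 cells, 8140 and 6117 RPKM in GFP cells and 3862 to 6997 RPKM in the other 20 libraries. In both preps OCL4 was the highest library, and GFP in prep 1 came next. GFP and OCL4 are also the first columns of each prep in the deposited table, and the labels do not say whether that is the order of handling, so its part in the result was not tested.

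**Figure D5:**
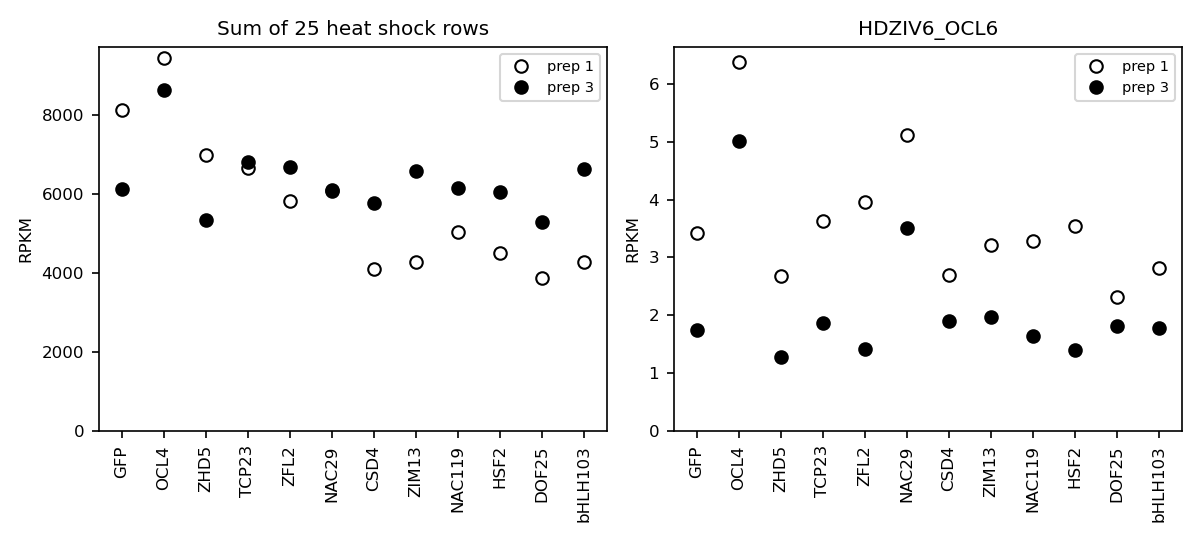
Summed RPKM of 25 heat shock rows (left) and RPKM of HDZIV6_OCL6 (right) in each library of preps 1 (open) and 3 (filled), with groups in the column order of the table and both axes from 0. OCL4 is the highest group of each prep in both panels, at 9450 and 8634 RPKM on the left and 6.39 and 5.02 RPKM on the right.

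Other lists did not yield calls against GFP. With 0.0996% of all rows tested called against GFP, lists of these sizes would mostly hold none. Of 29 ribosomal protein rows 3 were positive against GFP (median -0.13) and 24 against the other regulators (median 0.20), with 0 called. Of 41 jasmonate rows 0 were called, with medians of 0.03 and -0.14 against the 2 references; the allene oxide synthase gene aos1 (GRMZM2G067225) stood at 431 and 414 RPKM in OCL4 cells and 459 and 426 RPKM in GFP cells. Of 38 pathogenesis and defence rows 0 were called; wip1 (GRMZM2G156632), a wound-induced protease inhibitor gene, stood at 5622 and 4888 RPKM in OCL4 cells and 5029 and 5216 RPKM in GFP cells. No row of the photosynthesis, histone and cell cycle, wall, or homeobox and MADS lists was called against either reference. The hormone response list had 1 call in 67 rows, PIN9 against the other regulators.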

How the data were processed

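Polyadenylated RNA of maize leaf protoplasts was sequenced by the authors from directional libraries, per the labels' protocols. The authors deposited 1 table of RPKM; the build B73 RefGen_v3 and the tools HISAT2 2.1.0, featureCounts (Subread 1.6.3) and edgeR 3.20.9 are named in the submitters' processing notes, without their order. How reads were assigned by strand or between paralogs is not given in the sources used here. Whole reads were recovered from ratios between RPKM values for all 30213 rows, within 0.05 reads. Recovery was checked on simulated data, where 99.97% of 3000 rows came back.

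The RPKM values were put on log2(RPKM + 0.5) and fitted in limma 3.58.1 under R 4.3.3, with all 50 libraries in 25 groups, the prep as a block and 23 residual degrees of freedom. Rows needed 1 RPKM in 2 libraries. Data for OCL4 against GFP over 28122 rows were simulated with normal noise on the log2 scale, as the model assumes, and without read counts. In them the test recovered 47 of 50 rows raised by 2 and 16 of 50 raised by 1 (47 and 9 of 50 lowered). It called 4 of 27922 unchanged rows there, which may differ from its rate in real rows of few reads. Prep numbers come from the labels; between preps, differences of OCL4 and of GFP correlated at 0.30 across rows (median 0.13 over 66 pairs of groups).

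Names came from RefSeq for Zm-B73-REFERENCE-NAM-5.0, another build, which matched 14594 IDs and named 1991, so no positions are given. The members and lists were chosen with earlier results of these data known. The rule for named rows took ocl4, all calls against GFP, the largest calls against the other regulators (the text describes some and a figure shows the higher ones), PHAS and HD-ZIP IV rows, up to 4 called or else the 2 most abundant rows of each list, and rows next to the thresholds; further rows in those lists were picked after their values were seen. Alternatives were other pseudocounts, filters, scalings, libraries and block, the other regulators as reference, and limma-voom.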

Additional observations from a re-analysis of the deposited data

How the results depend on the processing

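The call of ocl4 held in every setting tried, and 0 of the called single-row changes turned sign. Among single-row changes not called, 44 turned sign in at least 1 alternative (62 values), each with a change of at most 0.39 as reported. In all, 227 single-row values lost the call, 29 gained it and 2220 stayed on their side of the thresholds. Without the replicate block on prep, 18 rows were higher and 0 lower against GFP, and 24 higher and 5 lower against the other regulators. A filter of 5 RPKM gave 13 higher and 0 lower against GFP, and 20 higher against the other regulators. A fit of the 4 libraries alone gave 1 higher and 0 lower, with 2371 rows at an unadjusted p below 0.05, since few degrees of freedom remain. A pseudocount of 0.1 gave 3 lower against GFP; one of 1 gave 0 lower, and 7 lower against the other regulators. With limma-voom on recovered reads, 24 rows were higher and 0 lower against GFP, 20 of the 28 calls among them, and 54 higher and 2 lower against the other regulators. The other regulators as reference gave 35 higher and 11 lower. Leaving out each library in turn gave 10 to 27 higher and 0 to 20 lower against GFP, and 10 to 37 higher and 5 to 33 lower against the other regulators. The cause of these shifts was not tested. With 2 preps a group, changes of 1 were often missed in the simulated data. Those data held no read counts, so they cannot show what few reads do to the calls. The planned search of promoters for the L1 box was not run, as no promoter sequence was at hand.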
